A study of Homo sapiens with 8 samples.

Results

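The 8 metastasis suppressor genes NME1, NME2, CD82, BRMS1, NDRG1, MAP2K4, ARHGDIB and PEBP1 were taken by symbol from the deposited tables, where they are 8 of 16383 listed genes. RNA was isolated with TRIzol and sequenced from MDA-MB-231, an established line of invasive triple-negative breast cancer cells. Treated cells received 5 µM cyclic di-GMP (c-di-GMP), a bacterial second messenger dinucleotide that human cells sense through STING. Control cells received the vehicle, PBS. Both were harvested 24 h after treatment, with 4 libraries in each group, and the labels name no genetic change in the cells of either group. Separate culture dishes for the 4 libraries are not stated in the labels, and p-values may therefore reflect technical spread alone.

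Metastasis suppressors are genes whose products limit the spread of tumour cells while leaving growth of the primary tumour largely possible. They share no single biochemical pathway. NME1 and NME2 encode nucleoside diphosphate kinases, CD82 a membrane tetraspanin, and BRMS1 a subunit of a transcriptional corepressor complex. NDRG1 encodes a stress-induced cytoplasmic protein, and MAP2K4, PEBP1 and ARHGDIB encode regulators of JNK and p38, MEK and small GTPase signalling. Several of them were described through loss or low levels in metastatic tumours, breast cancer among them.

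Library totals were 16151360 to 18040010 counts, so 3 counts amount to 0.166 to 0.186 counts per 1000000 counts of the library (CPM). Vehicle replicate 3 had a total within this range but differed from the others in how its counts were spread over genes. In CPM, which scales by library totals alone, its value lay outside the range of the other 7 for 13622 of 15384 genes with a mean of at least 10 counts (88.5%). Over these genes its median log2 ratio to vehicle replicates 1, 2 and 4 was -0.75. A gene somewhat low in it in CPM can therefore still stand above the typical gene of that library. It gave 28.4% of its counts to the 25% of genes with the shortest exonic length, against 13.8% to 15.6% in the other libraries, and 1.40% to mitochondrial genes, against 3.58% to 5.00%. No count was recorded in it for 465 genes, against 2 to 9 genes in the others. Results are therefore given with all 8 libraries and with the 7 that remain without vehicle replicate 3. The variation between libraries of a group that edgeR estimated (biological coefficient of variation) was 36.3% with it and 4.52% without it. Mesenchymal markers of the line were high in these 7, with 638 to 813 CPM for VIM and 1129 to 1321 CPM for AXL, while the epithelial marker CDH1 stood at 1.97 to 4.11 CPM. Of the luminal markers, GATA3 had 9.53 to 14.5 CPM, and ESR1, PGR and FOXA1 were not among the listed genes.

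With all 8 libraries, none of the 8 suppressors passed the test, and neither did any other gene (0.0% of 15415 genes, edgeR quasi-likelihood test with Benjamini-Hochberg adjustment). CD82 was the 1 member with an unadjusted p under 0.05, beside 960 of all genes, and DESeq2 called 106 genes, CD82 among them. Over the 7 libraries the differences were small but measurable. NME1 (1.32-fold) and ARHGDIB (1.11-fold) were higher in c-di-GMP cells. CD82 and NDRG1 were lower in c-di-GMP cells, at 0.766 and 0.878 of the vehicle level. NME2, BRMS1, MAP2K4 and PEBP1 did not pass. The 4 that passed were also those whose c-di-GMP libraries did not overlap the 3 vehicle libraries in CPM, as was so for 35.4% of all genes tested. These 4 of 8 stand beside 29.6% of all 15647 genes called in the same fit, 13.5% higher and 16.2% lower, and a count over 8 genes says little against such a background. Whether a lower level comes from fewer cells that express a gene or from less RNA per cell cannot be told apart in bulk RNA.

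Fold changes in these 7 libraries moved with the GC content of the transcripts. Among genes within 2.5 percentage points of the GC content of BRMS1 (61.6%), the median log2 fold change was -0.25 and 50.7% were called lower in c-di-GMP cells. Among genes as poor in GC as MAP2K4 (41.8%) the median was 0.11 and 23.9% were called higher. Each member is therefore also given from a fit that takes out each library's trend on GC content. That fit called 6 of the 8 members beside 15.2% of 15643 genes: NME1, ARHGDIB, BRMS1 and PEBP1 were higher (8.57% of all genes were) and CD82 and NDRG1 were lower (6.62% of all genes were). Leaving out 1 library at a time from the corrected fit left 2 to 6 members called, beside 1476 to 2638 of all genes. The calls of BRMS1 and PEBP1 were lost whenever any library but c-di-GMP replicate 2 was left out, that of NDRG1 without c-di-GMP replicate 1, vehicle replicate 1 or vehicle replicate 4, and that of ARHGDIB without c-di-GMP replicate 3, vehicle replicate 1 or vehicle replicate 4. NME1 and CD82 were called each time. The cause of the GC trend was not tested.

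**Figure D1:**
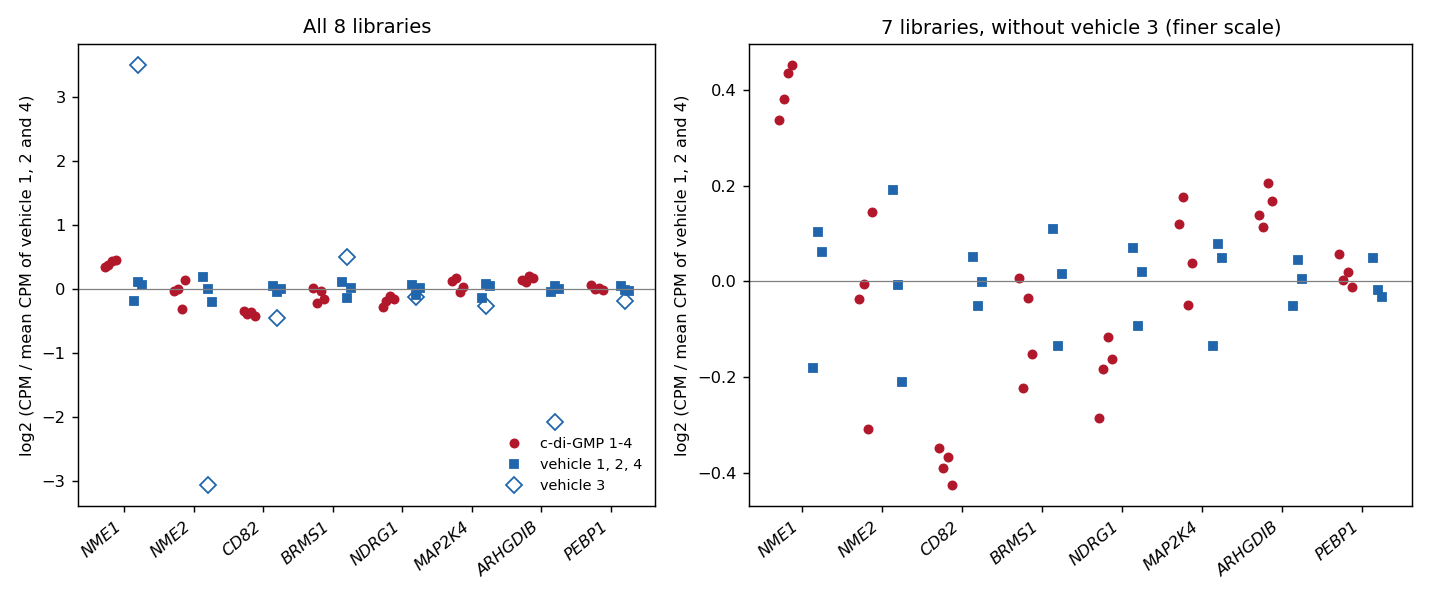
Level of each of the 8 genes in each library, as log2 of its CPM over the mean CPM of vehicle replicates 1, 2 and 4. For each gene c-di-GMP libraries are left of vehicle libraries. The left panel holds all 8 libraries, and the right panel the 7 without vehicle replicate 3, on a finer scale. Vehicle replicate 3 is marked apart in the left panel. Its NME1 point, 288 CPM or a log2 ratio of 3.50, lies far above all others.

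Levels differed widely between the 8 genes. Per length, on the deposited FPKM scale (fragments scaled to exonic length and library size), PEBP1 was highest over the 7 libraries, at 119.7 ± 3.57 FPKM (SD, n = 7), and NME2 lowest, at 1.91 ± 0.24 FPKM. Between them came NDRG1 (48.6 ± 3.89 FPKM), CD82 (37.7 ± 5.31 FPKM), ARHGDIB (36.5 ± 2.49 FPKM), BRMS1 (19.2 ± 1.53 FPKM), MAP2K4 (9.45 ± 0.69 FPKM) and NME1 (8.25 ± 1.32 FPKM). The length used is that of all annotated exons of a gene together, which exceeds the longest transcript unevenly. It is 9823 against 3983 bases for NDRG1, 3438 against 1645 for NME1, 5714 against 3856 for MAP2K4 and 1780 against 1697 for PEBP1. Comparisons between genes therefore hold for this length only. A pair of neighbours in this order changed places between the groups. In c-di-GMP cells CD82 (33.5 ± 0.86 FPKM, n = 4) lay below ARHGDIB (38.4 ± 1.00 FPKM), whereas in vehicle replicates 1, 2 and 4 CD82 (43.2 ± 1.77 FPKM, n = 3) lay above ARHGDIB (34.0 ± 0.99 FPKM), each time by more than the spread. MAP2K4 and NME1 did not differ beyond their spread in c-di-GMP cells, at 9.70 ± 0.67 and 9.25 ± 0.31 FPKM. In vehicle replicates 1, 2 and 4 they did, with MAP2K4 at 9.11 ± 0.65 and NME1 at 6.91 ± 0.67 FPKM. Both comparisons of MAP2K4 with NME1 depend on the lengths used. In vehicle replicate 3 the order was PEBP1, NME1, NDRG1, CD82, BRMS1, ARHGDIB, MAP2K4, NME2, with NME1 at 122 FPKM. The count total of that library was 146% of the library size that its FPKM values imply, against 92.4% to 94.4% in the other 7. Its FPKM values are therefore raised beside those of the other libraries, and only their order within the library is read here.

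NME1 and NME2 encode the A and B subunits of nucleoside diphosphate kinase, which passes phosphate from ATP to other nucleoside diphosphates. They are neighbours on the plus strand of chromosome 17: NME1 (ENSG00000239672) at chr17:51153536-51162428 and NME2 (ENSG00000243678) at chr17:51165435-51171747 (GRCh38). Their coding exons 2 to 4 are alike in 282 of 345 bases (81.7%), most of all exon 4, in which 99 of 113 bases are the same. Exon 4 is shown because it is where the genes are most alike. Capitals mark the 14 bases that differ, and the sequences are from GENCODE v29 transcripts at chr17:51161160-51161272 and chr17:51169937-51170049.
NME1: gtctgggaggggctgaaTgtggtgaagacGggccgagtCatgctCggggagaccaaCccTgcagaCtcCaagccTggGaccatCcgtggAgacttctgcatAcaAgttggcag
NME2: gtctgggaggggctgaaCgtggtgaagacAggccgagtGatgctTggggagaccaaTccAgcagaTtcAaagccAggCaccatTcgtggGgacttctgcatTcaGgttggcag
The longest stretch without a difference between the exons is 17 bases, and no window of 25 bases is shared by the NME1 and NME2 transcripts compared. The read-through gene NME1-NME2 is a different matter. It covers 638 exonic bases of NME1 (18.6%) and 603 of NME2 (22.9%) on the same strand. Of the 25-base windows, 70.5% of those of the NME2 transcript and 43.2% of those of the NME1 transcript also lie in a transcript of it. NME1-NME2 was not among the listed genes, and how reads that overlap it were assigned is not given in the sources used here, so the levels of both genes, NME2 above all, are uncertain.

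NME1 had 32.3, 33.2, 34.5 and 34.9 CPM in c-di-GMP cells, against 22.5, 27.4 and 26.6 CPM in vehicle replicates 1, 2 and 4 and 288 CPM in vehicle replicate 3. All 4 c-di-GMP libraries lay above the 3 vehicle libraries, and vehicle replicate 3 lay far above all 7. Over the 7 libraries NME1 averaged 33.7 ± 1.22 CPM in c-di-GMP cells (n = 4) and 25.5 ± 2.64 CPM in vehicle cells (n = 3), a log2 fold change of 0.40 ± 0.07 (SE; adjusted p = 9.44e-05, edgeR). The 95% interval was 0.26 to 0.54, and with the GC trend taken out the value was 0.38 ± 0.06 (adjusted p = 1.53e-04). With all 8 libraries the sign turned, to -1.99 ± 1.04 (adjusted p = 0.623), so the direction for NME1 rests on leaving out 1 library. In plain CPM, NME1 in vehicle replicate 3 was 11.3-fold above the mean of the other vehicle libraries, rank 76 from the top among the 15384 genes. On the TMM scale of the 8-library fit it stood at 434 CPM there.

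NME2 had 5.32, 5.44, 4.41 and 6.04 CPM in c-di-GMP cells, against 6.23, 5.43 and 4.72 CPM in vehicle replicates 1, 2 and 4 and 0.652 CPM in vehicle replicate 3. The groups overlapped, and vehicle replicate 3, with 11 counts, was the lowest of all, so that in this library NME1 was high while NME2 was low. The log2 fold change of NME2 was -0.05 ± 0.14 over the 7 libraries (95% interval -0.33 to 0.24, adjusted p = 0.838), 0.19 ± 0.13 with the GC trend taken out and 0.27 ± 0.44 over all 8, none of them called. NME1 counts exceeded NME2 counts by 6.06, 6.11, 7.83 and 5.78 times in the c-di-GMP libraries, against 3.61, 5.05 and 5.65 times in vehicle replicates 1, 2 and 4 and 442 times in vehicle replicate 3. The pseudogene NME2P1, named after its values were seen, had 10, 10, 13 and 11 counts in c-di-GMP libraries, against 10, 8 and 13 counts in vehicle replicates 1, 2 and 4 and 79 counts in vehicle replicate 3.

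Of 8 other genes of the NME family, 5 were listed and 4 could be tested over the 7 libraries. None was called, beside 29.6% of all genes, and their median log2 fold change was -0.03 against 0.00 for all genes. NME3 averaged 15.02 ± 1.63 CPM in c-di-GMP cells and 16.8 ± 0.405 CPM in vehicle cells (log2 fold change -0.17 ± 0.09). NME7 gave a log2 fold change of 0.15 ± 0.06 and NME4 one of -0.06 ± 0.07; with the GC trend taken out NME4 was called higher, at 0.17 ± 0.06 (adjusted p = 0.0414, edgeR). Over all 8 libraries NME3 stood at -1.41 ± 0.67, NME7 at -0.21 ± 0.27 and NME4 at 0.15 ± 0.24, none of them called.

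CD82 (KAI1; ENSG00000085117, chr11:44564427-44620363, plus strand) encodes a tetraspanin, a 4-pass membrane protein that gathers integrins and growth factor receptors into membrane patches. CD82 had 148, 144, 146 and 140.02 CPM in c-di-GMP cells, against 195, 181 and 188 CPM in vehicle replicates 1, 2 and 4 and 137 CPM in vehicle replicate 3. An antisense gene, AC010768.1, shares 280 of its exonic bases (6.91%) on the opposite strand. Every c-di-GMP library lay below vehicle replicates 1, 2 and 4 and above vehicle replicate 3. The group means were 144 ± 3.33 CPM in c-di-GMP cells (n = 4) and 188 ± 6.65 CPM in vehicle cells (n = 3). The log2 fold change over the 7 libraries was -0.38 ± 0.04 (95% interval -0.47 to -0.30, adjusted p = 6.32e-07, edgeR).

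CD82 transcripts are rich in GC (59.0%), and among 2237 genes within 2.5 percentage points of that content the median log2 fold change was -0.19, with 39.96% called lower. With the GC trend taken out CD82 was still called, at -0.20 ± 0.03 (adjusted p = 9.78e-05), a smaller value than without it. Over all 8 libraries it was -0.44 ± 0.10 with an unadjusted p of 0.00285 and an adjusted p of 0.623. TMM scaling gave vehicle replicate 3 a factor of 0.664, against 1.05 to 1.07 in the other libraries, and on that scale its CD82 level was 206 CPM, above all c-di-GMP libraries. The estimate for CD82 was thus below 0 in all 3 fits.

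Other tetraspanins and their partners moved in both directions. Of 19 such genes 18 were tested, with a median log2 fold change of -0.06 over the 7 libraries. Of these 4 were called higher and 4 lower (all genes: 13.5% higher and 16.2% lower). ITGA3, the integrin subunit that binds the tetraspanin CD151, averaged 1211 ± 20.8 CPM in c-di-GMP cells and 1483 ± 109.7 CPM in vehicle cells (log2 fold change -0.29 ± 0.05, adjusted p = 4.20e-05, edgeR). IGSF8, a partner of CD9 and CD81, changed by -0.31 ± 0.06, and TSPAN9 by -0.22 ± 0.05. None of these 3 was called once the GC trend was taken out, when ITGA3 stood at -0.05 ± 0.03. In that fit 5 genes of the list were called higher and 0 lower (all genes: 8.57% higher and 6.62% lower).

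BRMS1 (ENSG00000174744, chr11:66337333-66345125, minus strand) encodes a subunit of SIN3-HDAC complexes, which remove acetyl groups from histones. BRMS1 had 53.6, 45.7, 52.1 and 48.0 CPM in c-di-GMP cells, against 57.6, 48.6 and 53.9 CPM in vehicle replicates 1, 2 and 4 and 75.7 CPM in vehicle replicate 3. The groups overlapped without vehicle replicate 3, which was the highest of the 8 libraries. The log2 fold change was -0.10 ± 0.06 over the 7 libraries (95% interval -0.23 to 0.03, adjusted p = 0.262), 0.15 ± 0.05 with the GC trend taken out (adjusted p = 0.0491, edgeR) and -0.49 ± 0.29 over all 8 (adjusted p = 0.623), so its sign depends on the GC correction.

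Of 17 names of SIN3-HDAC components 16 were tested, with a median log2 fold change of 0.05 over the 7 libraries. Of these 5 were called higher and 1 lower (all genes: 13.5% higher and 16.2% lower). SIN3B, a scaffold of the complex, averaged 149 ± 3.10 CPM in c-di-GMP cells and 186 ± 16.8 CPM in vehicle cells (log2 fold change -0.33 ± 0.05, adjusted p = 3.73e-05, edgeR). The deacetylase HDAC2 was higher by 0.16 ± 0.04 and the histone-binding subunit RBBP4 by 0.15 ± 0.04. With the GC trend taken out 1 gene was called higher and 2 lower (all genes: 8.57% higher and 6.62% lower). SIN3B remained called, at -0.11 ± 0.03, and HDAC2 (0.03 ± 0.03) and RBBP4 (0.04 ± 0.03) did not pass. Over all 8 libraries HDAC2 stood at -0.31 ± 0.33 and RBBP4 at 0.38 ± 0.27, neither called.

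NDRG1 (ENSG00000104419, chr8:133237171-133302022, minus strand) encodes a cytoplasmic protein that is induced by hypoxia and iron depletion and phosphorylated by the kinase SGK1. NDRG1 had 449, 482, 505 and 489 CPM in c-di-GMP cells, against 573, 513 and 555 CPM in vehicle replicates 1, 2 and 4 and 502 CPM in vehicle replicate 3. The c-di-GMP libraries lay below the 3 vehicle libraries, with a narrow gap. Vehicle replicate 3 lay among the c-di-GMP libraries in plain CPM, but on the TMM scale of the 8-library fit it was the highest of the 8, at 756 CPM. The group means were 481 ± 23.5 CPM in c-di-GMP cells (n = 4) and 547 ± 31.2 CPM in vehicle cells (n = 3), a log2 fold change of -0.19 ± 0.05 (95% interval -0.28 to -0.09, adjusted p = 0.00371, edgeR). It was -0.14 ± 0.04 with the GC trend taken out (adjusted p = 0.0139) and -0.34 ± 0.17 over all 8 libraries (adjusted p = 0.623).

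Among 15 genes of the NDRG family, SGK1 and targets of the hypoxia factor HIF, the median log2 fold change over 7 libraries was -0.03. Of these 3 were called higher and 3 lower (all genes: 13.5% higher and 16.2% lower). VEGFA, the endothelial growth factor, averaged 394 ± 6.02 CPM in c-di-GMP cells and 575 ± 23.4 CPM in vehicle cells (log2 fold change -0.55 ± 0.04, adjusted p = 4.38e-09, edgeR), and -0.45 ± 0.03 with the GC trend taken out. The glucose transporter SLC2A1 was lower by both fits, at -0.21 ± 0.04 and -0.11 ± 0.03. PFKFB4, a glycolytic regulator, was lower at -0.19 ± 0.06 without the correction, and its value with it, -0.05 ± 0.05, did not pass. With the correction 2 genes were called higher and 2 lower (all genes: 8.57% higher and 6.62% lower). Over all 8 libraries VEGFA stood at -0.25 ± 0.38 (adjusted p = 0.804, edgeR).

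MAP2K4 (MKK4; ENSG00000065559, chr17:12020824-12143830, plus strand) encodes the kinase that activates JNK and p38. MAP2K4 had 60.7, 63.2, 54.0 and 57.4 CPM in c-di-GMP cells, against 50.9, 59.0 and 57.8 CPM in vehicle replicates 1, 2 and 4 and 46.4 CPM in vehicle replicate 3. The groups overlapped, and vehicle replicate 3 was the lowest library in plain CPM, but on the TMM scale of the 8-library fit it was the highest, at 70.00 CPM. The log2 fold change was 0.07 ± 0.06 over the 7 libraries (95% interval -0.05 to 0.20, adjusted p = 0.396), -0.03 ± 0.05 with the GC trend taken out and -0.04 ± 0.14 over all 8, so its sign differed between the fits.

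The other genes of the JNK and p38 module held some of the largest values named here. Of 18 genes 17 were tested, 2 were called higher and 7 lower over the 7 libraries (all genes: 13.5% higher and 16.2% lower), with a median log2 fold change of 0.01. JUND, a component of the AP-1 factor that JNK acts on, averaged 116 ± 4.86 CPM in c-di-GMP cells and 207 ± 22.6 CPM in vehicle cells (log2 fold change -0.84 ± 0.06, adjusted p = 1.11e-09, edgeR). The upstream kinase MAP3K11 changed by -0.43 ± 0.05 and the JNK scaffold MAPK8IP3 by -0.46 ± 0.05. All 3 were still called with the GC trend taken out, at smaller values of -0.37 ± 0.03, -0.24 ± 0.04 and -0.12 ± 0.04, in a fit that called 0 genes of the list higher and 4 lower (all genes: 8.57% higher and 6.62% lower). None was called over all 8 libraries.

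PEBP1 (RKIP; ENSG00000089220, chr12:118135858-118145584, plus strand) encodes an inhibitor of the kinase cascade that activates MEK. PEBP1 had 235, 226, 229 and 224 CPM in c-di-GMP cells, against 233, 223 and 221 CPM in vehicle replicates 1, 2 and 4 and 198 CPM in vehicle replicate 3. The groups overlapped, and vehicle replicate 3 was the lowest in plain CPM, but on the TMM scale of the 8-library fit it was the highest, at 298 CPM. The log2 fold change was 0.02 ± 0.04 over the 7 libraries (95% interval -0.07 to 0.10, adjusted p = 0.818), an interval that does not reach the size of the differences in CD82 or NME1. It was 0.09 ± 0.03 with the GC trend taken out (95% interval 0.03 to 0.16, adjusted p = 0.0492, edgeR) and -0.12 ± 0.14 over all 8. PEBP1 shares 169 exonic bases (9.49%) with VSIG10 on the opposite strand, and the strand setting of the counting is not given; VSIG10 itself had 34.1 to 34.7 CPM in the 7 libraries.

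For 11 genes of the RAF, MEK and ERK cascade the median log2 fold change over the 7 libraries was -0.05. Of these 2 were called higher and 1 lower (all genes: 13.5% higher and 16.2% lower). MAP2K2 (MEK2) averaged 193 ± 5.86 CPM in c-di-GMP cells and 232 ± 21.7 CPM in vehicle cells (log2 fold change -0.27 ± 0.05, adjusted p = 3.22e-04, edgeR), and -0.04 ± 0.03 with the GC trend taken out, no longer called. NRAS was higher at 0.12 ± 0.05 without the correction, and its corrected value was -0.00 ± 0.03 and that over all 8 libraries -0.08 ± 0.18. The corrected fit called 4 genes of the cascade higher and 0 lower (all genes: 8.57% higher and 6.62% lower).

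ARHGDIB (ENSG00000111348, chr12:14942017-14961728, minus strand) encodes an inhibitor that holds small GTPases in the cytosol in their GDP-bound form. ARHGDIB had 84.6, 83.1, 88.6 and 86.2 CPM in c-di-GMP cells, against 74.1, 79.3 and 77.0 CPM in vehicle replicates 1, 2 and 4 and 18.1 CPM in vehicle replicate 3. In plain CPM it was the 1 member whose 4 c-di-GMP libraries all lay above all 4 vehicle libraries, as was the case for 9.93% of all genes tested over the 8 libraries. In plain CPM none of the 8 members lay below all 4 vehicle libraries, beside 4.33% of all genes. On the TMM scale of the 8-library fit CD82 and NDRG1 did. The share of all genes on that scale was not computed, so this carries no weight as a count. The group means were 85.6 ± 2.34 CPM in c-di-GMP cells (n = 4) and 76.8 ± 2.57 CPM in vehicle cells (n = 3), a log2 fold change of 0.16 ± 0.05 (95% interval 0.06 to 0.25, adjusted p = 0.0130, edgeR). It was 0.14 ± 0.04 with the GC trend taken out (adjusted p = 0.0146, edgeR) and 0.40 ± 0.29 over all 8 (adjusted p = 0.635, edgeR). In plain CPM vehicle replicate 3 lay 4.23-fold below the mean of the other vehicle libraries. On the TMM scale of the 8-library fit it stood at 27.4 CPM, against 70.5 to 74.6 CPM in the other vehicle libraries.

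Of 10 other GDP dissociation inhibitors (GDIs) and small GTPases 9 were tested, 2 were called higher and 4 lower over the 7 libraries (29.6% of all genes were called), with a median log2 fold change of -0.11. The GTPase RHOA averaged 613 ± 21.7 CPM in c-di-GMP cells and 530 ± 17.6 CPM in vehicle cells (log2 fold change 0.21 ± 0.04, adjusted p = 4.53e-04, edgeR). RAC1 was higher by 0.23 ± 0.04, and RHOB was lower, at -0.30 ± 0.06. All 3 were still called with the GC trend taken out, at 0.18 ± 0.03, 0.16 ± 0.03 and -0.16 ± 0.05. Over all 8 libraries RHOA (-0.11 ± 0.26) and RAC1 (-0.07 ± 0.24) had the other sign and were not called. With the GC trend taken out the counts of the list were 4 higher and 1 lower, beside 15.2% of all genes called, and its median was 0.11.

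**Figure D2:**
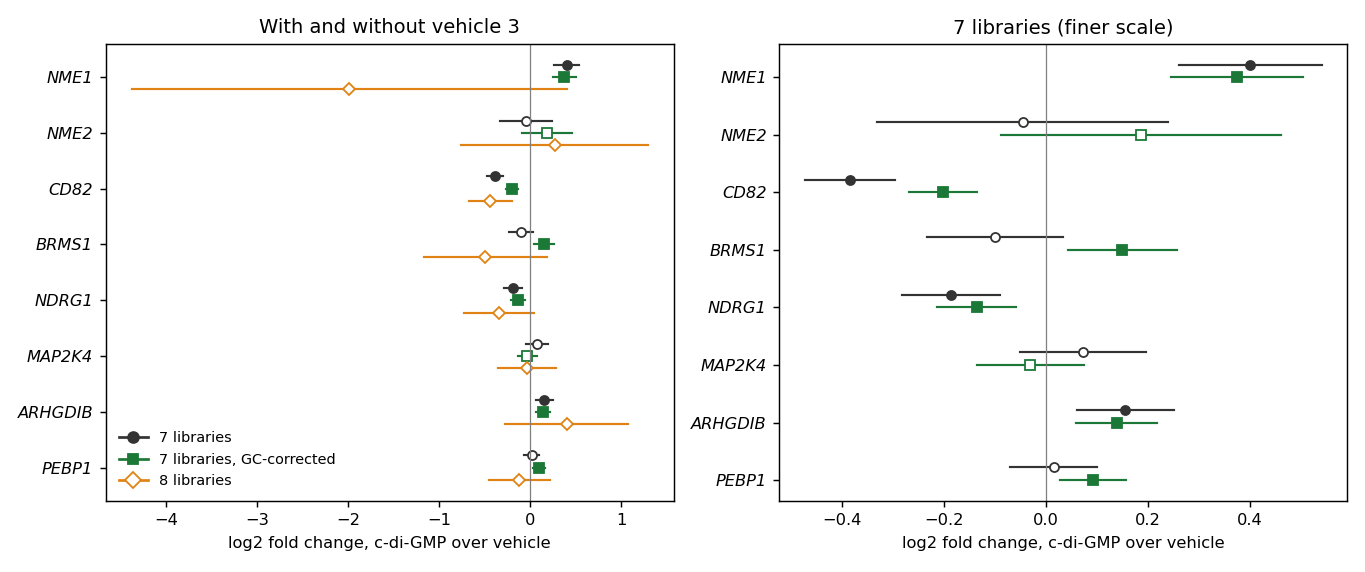
Log2 fold change of c-di-GMP over vehicle for each of the 8 genes, with approximate 95% intervals, in the fit of 7 libraries, the same fit with the GC trend taken out, and the fit of all 8 libraries. The points of CD82 and NDRG1 lie below 0 and that of ARHGDIB above 0 in all 3 fits, while NME1 is 0.40 over 7 libraries and -1.99 over 8.

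**Figure D3:**
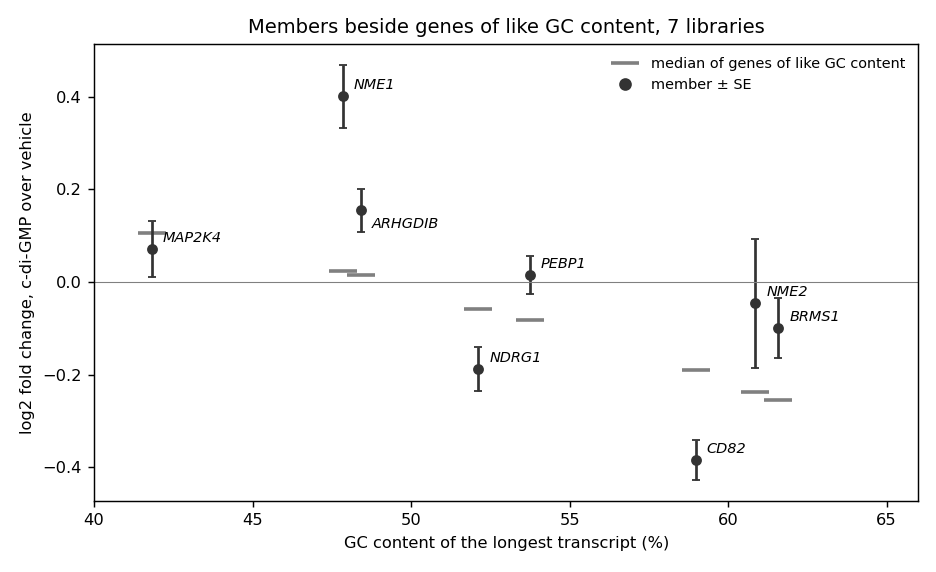
Log2 fold change of c-di-GMP over vehicle over 7 libraries against the GC content of the longest transcript in percent, for the 8 genes (± SE). Grey dashes give the median of all tested genes within 2.5 percentage points of each gene's GC content. The medians fall from left to right. NME1 lies farthest above the median at its GC content (0.40 against 0.03), and BRMS1, NME2, ARHGDIB and PEBP1 also lie above theirs. CD82 and NDRG1 lie below theirs, as does MAP2K4, by less than its SE.

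Other genes described as metastasis suppressors gave a mixed picture. Of 25 such genes 22 were listed and 21 tested. Over the 7 libraries 4 were called higher and 3 lower (all genes: 13.5% higher and 16.2% lower), and the list's median log2 fold change was -0.02. With the GC trend taken out 2 were called higher and 5 lower (all genes: 8.57% higher and 6.62% lower). GSN, the actin-severing gelsolin, averaged 134 ± 3.33 CPM in c-di-GMP cells and 158 ± 15.2 CPM in vehicle cells (log2 fold change -0.24 ± 0.05, adjusted p = 0.00131, edgeR), and -0.23 ± 0.05 with the GC trend taken out. RRM1, the large subunit of ribonucleotide reductase, was higher by 0.22 ± 0.04 and 0.14 ± 0.03, both called, and stood at -0.25 ± 0.33 over all 8 libraries. MAP2K7, the other kinase that activates JNK and also a gene of the JNK list, was called lower at -0.25 ± 0.04 without the correction and was 0.04 ± 0.04 with it. No gene of any of the 8 lists was called over all 8 libraries.

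**Figure D4:**
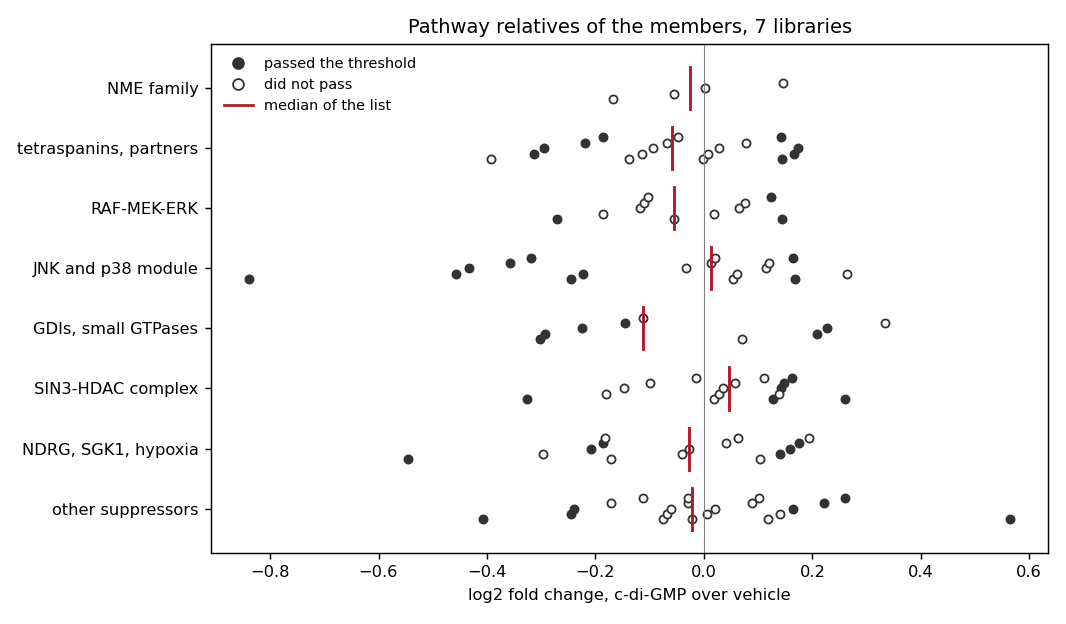
Log2 fold change of c-di-GMP over vehicle over 7 libraries for each tested gene of the 8 pathway lists, with the median of each list. The medians lie between -0.11 and 0.05, close to the 0.00 of all genes, and single genes such as JUND and VEGFA lie far from them.

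The genes whose levels followed each member most closely over the 8 libraries were found by the root mean square difference of centred log2 CPM. Vehicle replicate 3 weighs heavily in this measure. Only the 12237 protein-coding genes with a mean of at least 1 CPM were compared. HSPE1, a mitochondrial chaperonin, lay nearest to NME1, with a difference of 0.0387 against a median of 1.34 over the genes compared. RPS15A, a ribosomal protein gene, came next (0.0485). HSPE1 had 28.98 to 32.6 CPM in c-di-GMP cells, against 21.7 to 25.1 CPM in vehicle replicates 1, 2 and 4 and 262 CPM in vehicle replicate 3, the same order as NME1. MGAT4B (0.0409) and SELENOO (0.0417) lay nearest to CD82, and MGAT4B had 203 to 215 CPM in c-di-GMP cells, against 248 to 280 CPM in vehicle replicates 1, 2 and 4 and 187 CPM in vehicle replicate 3. XRN2 (0.0283) and SH3BGRL3 (0.0323) lay nearest to ARHGDIB, ARRB1 (0.0480) and CSNK1E (0.0481) to NDRG1, and SAP30L (0.0442) and CLU (0.0508) to BRMS1. SAP30L is itself on the SIN3-HDAC list. ZNF24 (0.0388) and STX12 (0.0406) lay nearest to MAP2K4 and HM13 (0.0246) and NOP14 (0.0269) to PEBP1. NME2 had no neighbour as close, with BIN3 at 0.0933 and FRMD4B at 0.109.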

How the data were processed

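Read counts per gene and FPKM were taken as the authors deposited them. Per the submitters' processing notes, the tools were HISAT2 2.0.5, featureCounts 1.5.0-p3, CASAVA 1.8, DESeq2 1.20.0 and fastp. The notes name the mouse build mm10, but the gene identifiers are human, and the coordinates of all 16383 genes equal those of GENCODE v29 on GRCh38. Symbols altered in the tables (24 in the counts) were restored from the identifiers. The strand setting of the counting is not given in the sources used here.

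Here, counts were tested with edgeR 4.0.16 (quasi-likelihood F test, TMM, filterByExpr with a minimum count of 10, Benjamini-Hochberg threshold 0.05) in R 4.3.3, over all 8 libraries and over 7 without vehicle replicate 3. The third fit adds, for the 7, a lowess trend (span 0.3) of each library on the GC content of each gene's longest transcript as an offset. Standard errors are the fold change over the root of F. Levels are plain CPM, and FPKM was used only to order genes and, as log2(FPKM + 1) or log2(FPKM + 0.1), in limma 3.58.1. DESeq2 1.42.0, limma-voom, other scalings, no filter, leave-one-out and a replicate block were the alternatives. The procedure was tested on simulated data. From each pathway list, up to 3 genes with the smallest p over 7 libraries are named. Members and lists were chosen with earlier results of these data known, so none of them is independent evidence. The fit without vehicle replicate 3 and the fit with the GC trend taken out were also chosen with such results known. The interval behind a count covers counting error only. Library totals of 16151360 to 18040010 counts set the depth. Some genes of the pathway lists are not reported here by name.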

Additional observations from a re-analysis of the deposited data

Results flagged for a closer look

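NME1 stood at 288 CPM in vehicle replicate 3, where the other 3 vehicle libraries lay between 22.5 and 27.4 CPM. The gap between this library and the nearest of the others took up 0.981 of the whole range of the vehicle group, past the 95% limit for 4 samples. ARHGDIB stood at 18.1 CPM in the same library, the lowest of 4, with a gap of 0.916 of the range. Chance alone gives a gap past that limit, 0.829 of the range, in about 1 in 20 groups. In all 16 groups (8 genes in c-di-GMP and vehicle cells) were examined, which share the same 8 libraries and are not independent. Both come from the library that in plain CPM lay outside the range of the other 7 for 88.5% of genes with a mean of at least 10 counts.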

How the results depend on the processing

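Over all 8 libraries edgeR called 0 genes, limma-voom 0 and DESeq2 106 (28 higher, 78 lower), with 1 member, CD82, called by DESeq2. Leaving out 1 library at a time gave 0 to 4633 genes and 0 to 4 members, the upper values without vehicle replicate 3. Scaling by library totals moved the median log2 fold change of all genes to 0.08 from -0.05, and turned MAP2K4 (0.14) and PEBP1 (0.063). Without vehicle replicate 3, NME1, NME2, MAP2K4 and PEBP1 had the opposite sign of the 8-library value. Leaving out 1 library at a time gave ranges of -2.34 to 0.40 for NME1, -0.046 to 0.49 for NME2, -0.11 to 0.072 for MAP2K4 and -0.17 to 0.015 for PEBP1, and the end that departs in sign is the value without vehicle replicate 3. MAP2K4 also stood at 0.003 without c-di-GMP replicate 3.

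Over the 7 libraries, NME1 and CD82 kept their call and direction in every alternative run. With the GC offset 2377 genes were called, against 4633 without it, and 1598 with the offset and the replicate block together. Leave-one-out gave 3440 to 4826 genes and 4 members each time. The FPKM fits called 3 members, beside 3538 of 16369 genes for log2(FPKM + 1) and 3543 of 16369 for log2(FPKM + 0.1). Without a filter log2(FPKM + 1) gave 3525 of 16383 genes. NDRG1 was not among the 3 members (adjusted p = 0.056 for log2(FPKM + 1), limma). Signs turned for NME2 without c-di-GMP replicate 3 or vehicle replicate 1 (range -0.15 to 0.067) and with the GC offset (0.19), for PEBP1 without c-di-GMP replicate 1 or vehicle replicate 4 (range -0.0073 to 0.047), and with the GC offset for BRMS1 (0.15) and MAP2K4 (-0.031).

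Replicate numbers are shared between the groups, and the labels do not say whether same-numbered samples are paired. Over all 8 libraries the correlations of same-numbered deviations were -0.0003, 0.184, 0.123 and -0.058. The 0.184 of replicate 2 is not particular to the shared number: c-di-GMP replicate 2 gave 0.176 and 0.180 with vehicle replicates 1 and 4. Over 7 the same-numbered correlations were 0.010, -0.005 and 0.004, and those of unlike numbers were -0.020 to 0.018. The replicate block gave 0 genes over all 8 libraries and 4093 genes with 3 members over 7, where NME2 turned to 0.039. ARHGDIB was no longer called with it (adjusted p = 0.051). With the GC offset and the replicate block together, 3 members were called beside 1598 of 15643 genes, NME2 was 0.27 and BRMS1 0.135.

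Chosen after seeing the data, leave-one-out within the GC-corrected fit gave 1476 to 2638 genes and 2 to 6 members: 1476 genes without vehicle replicate 1 and 1551 without vehicle replicate 4. NME1 and CD82 were called each time, NDRG1 in 4 of 7, ARHGDIB in 4 of 7, and BRMS1 and PEBP1 in 1 of 7, without c-di-GMP replicate 2. MAP2K4 ranged over -0.066 to 0.0054, above 0 without c-di-GMP replicate 3. NME2 had 78 to 111 counts a library in the 7 libraries, the lowest of the 8 members. The cause of these changes was not tested.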
